A study of Homo sapiens with 16 samples.

Results

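The readthrough transcripts of the histone H4 genes H4C4 and H4C7 were examined in the human embryonic kidney line HEK293. A downstream-of-gene transcript (DoG) is RNA that continues past the annotated end of a gene, and it was listed in each library as a region that starts at the gene end. H4C4 and H4C7 are 2 of the 3505 genes with a DoG in any of 16 lists and 2 of the 3139 entries with FPKM (fragments scaled to the length of the region and to the reads of the library), which cover 3135 genes. They were selected on their FPKM under control conditions, where they had the 2 lowest differences of the SERIPH 2nd-step fraction from hiAGPC among all DoGs, so values from those 4 libraries are given below as a description with no test.

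Cells were kept in control medium or placed for 9 h in medium with 200 mM sorbitol, an osmotic stressor, and 100 µg/mL cycloheximide, a translation inhibitor (DoG-inducing). Total RNA was taken from the aqueous phase of an AGPC (acid guanidinium-phenol-chloroform) extraction (conventional), from the same extraction with a heating step (hiAGPC), or by SERIPH, in which the aqueous phase is the 1st-step fraction and RNA later freed from the washed interphase by heat is the 2nd-step fraction. Each of these 4 preparations was sequenced from 2 biological replicates per condition, which gave 8 groups of 2 stranded, rRNA-depleted libraries. Since FPKM scales each library by its own reads, less of an RNA and more of other RNA in a preparation cannot be told apart. Markers of the cell line were not analysed here, since the tables hold DoGs and not gene expression.

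Replication-dependent histone genes are short, lack introns and lie in clusters, and their transcripts are made mainly in S phase. Their mRNAs end without a poly(A) tail, after a conserved stem-loop that is bound by the stem-loop binding protein, while the U7 small nuclear RNA pairs with an element just downstream to direct cleavage. RNA polymerase that is not released at such an end can transcribe onward into the next genes of the cluster.

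Both genes lie on the minus strand of chromosome 6 (GRCh38, GENCODE v44) and are separated by 57.5 kb. H4C4 (ENSG00000277157.2), which encodes histone H4, spans 403 bp at chr6:26188710-26189112. H4C7 (ENSG00000275663.2), which encodes a divergent H4 protein, spans 386 bp at chr6:26246611-26246996. The region over which the authors computed the H4C4 FPKM ran 154 kb downstream, to position 26034760, and that of H4C7 ran 27.4 kb, to position 26219212. Other histone genes lie inside these regions on the same strand. The H4C4 region holds H2BC4 and H2BC3, which encode the core histone H2B, H1-2, which encodes a linker histone, and H1-6, which encodes the linker histone of the testis, and the H4C7 region holds the linker histone gene H1-3. The 3' ends of these genes are shown with those of H4C4 and H4C7, because transcripts of these genes are counted in the same regions.

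The stem-loops were found in the reference genome as a perfect inverted repeat of 6 bp around 4 bases within 100 bp of an annotated gene end or, for H2BC4, of a shorter protein-coding transcript. Each is given 5' to 3' on the minus strand with 5 bases on either side, and capitals mark the arms of the stem.
H4C4 (chr6:26188715-26188730): ccaacGGCCCTtttcAGGGCCaccta
H4C7 (chr6:26246616-26246631): ttaatGGCCCTtttcAGGGCCgcgta
H2BC4 (chr6:26123472-26123487): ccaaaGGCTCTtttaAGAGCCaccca
H1-6 (chr6:26107417-26107432): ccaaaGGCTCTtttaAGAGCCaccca
H1-2 (chr6:26055744-26055759): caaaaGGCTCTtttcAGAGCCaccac
H2BC3 (chr6:26043232-26043247): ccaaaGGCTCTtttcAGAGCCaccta
H1-3 (chr6:26234217-26234232): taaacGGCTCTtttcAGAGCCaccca

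H4C4 and H4C7 carry the same 16 bases from the first to the last base of the stem. This stem-loop was found at 10 of the 70 replication-dependent histone genes examined, all of them H4 genes, of which the list holds 15. The same-strand histone genes inside the counted regions carry a stem with other arms, with a loop that ends in A at H2BC4 and H1-6. The H4C4 and H4C7 stems stop 5 bases before the annotated gene end. An inverted repeat of this form lay within 100 bp of the gene end at 52 of the 70 histone genes (74.3%), against 2074 of all 20046 protein-coding genes (10.3%). A match describes the letters and is not a measured cleavage site.

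Neither gene had a listed DoG in any control library. Under DoG-inducing conditions, all 8 libraries listed H4C4 and 4 listed H4C7. The H4C4 region was 60 and 50 kb long in the SERIPH 1st-step libraries, and 62945 bp in both conventional libraries, both hiAGPC libraries and replicate 2 of the 2nd step. It was 143950 bp long in replicate 1 of the 2nd step. The far end shared by 5 libraries, at position 26125765, lies 1839 bp before the 5' end of H2BC4 in GENCODE v44. By these bounds, which may differ in the later release the authors used, neither these regions nor the 2 shorter ones reach a same-strand histone gene. The region of 143950 bp runs over H2BC4, H1-6 and H1-2. The replicates of the 2nd step therefore differed in length, which leaves the longest region resting on 1 library.

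H4C7 was listed with 10000 bp in both hiAGPC libraries and in replicate 1 of the SERIPH 2nd step, and with 27399 bp in replicate 2 of the 2nd step. The 3 short regions end before H1-3, whose 5' end is 11.6 kb downstream of H4C7, and the long one covers it. H4C7 was listed in both replicates of 2 groups and H4C4 in both replicates of 4 groups. Neither the conventional nor the 1st-step libraries listed H4C7, although its FPKM there, given below, overlapped that of the preparations that did. Among the 70 replication-dependent histone genes, 29 had a listed DoG and 27 of these appeared in no control library, as did 2655 of all 3505 DoG-producing genes. H4C4 is 1 of 8 that were listed in all 8 DoG-inducing libraries and in no control library, a pattern shared by 126 of the 3505 DoG-producing genes (3.59%).

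**Figure D1:**
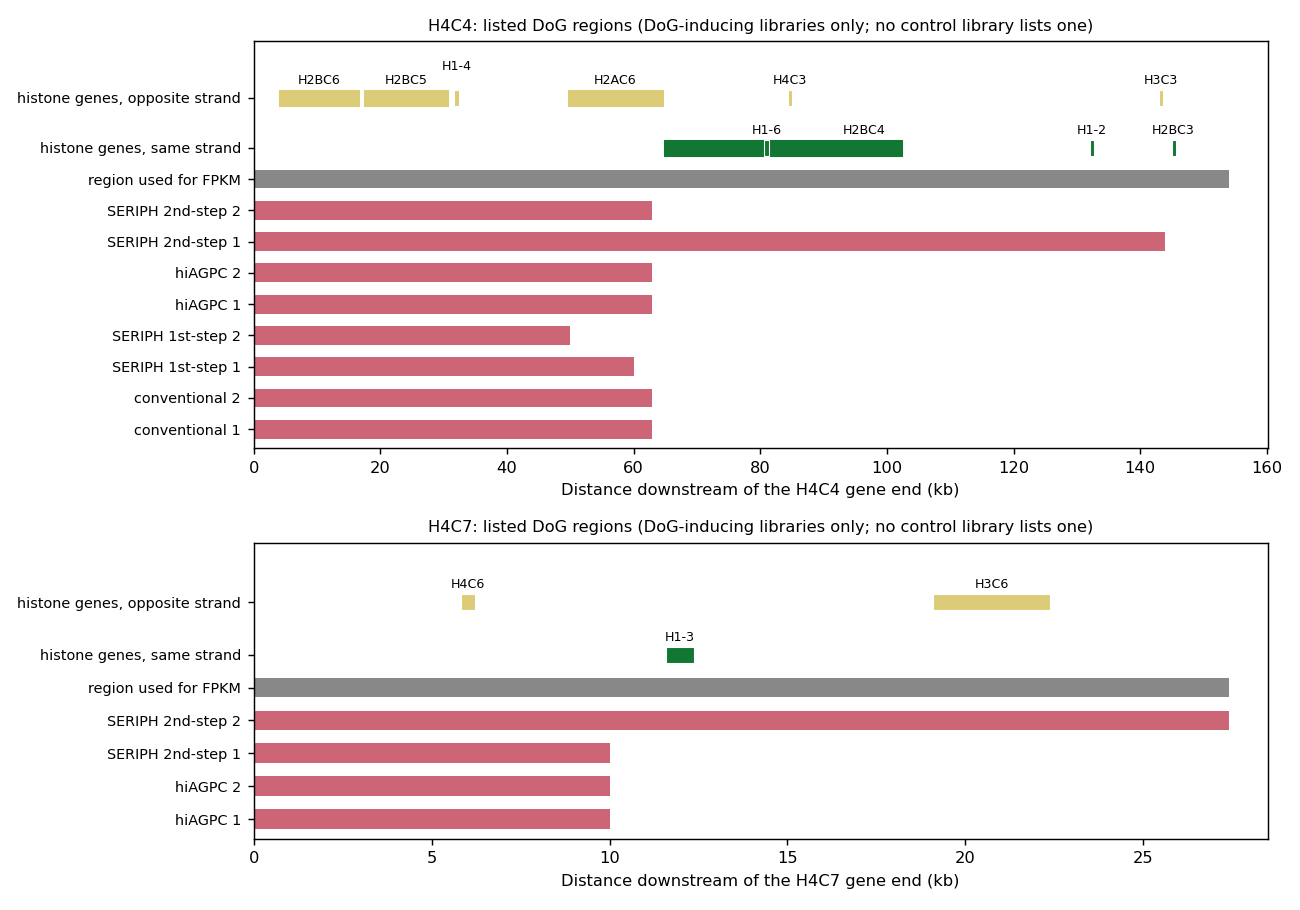
Listed DoG regions of H4C4 (upper panel) and H4C7 (lower panel) as distance downstream of the gene end in kb, 1 bar per library, with the region used for FPKM in grey and histone genes of the same strand in green and of the opposite strand in yellow (very short genes are drawn at a minimum width). Of the 8 H4C4 regions 1 reaches green genes and covers 3 of the 4, and of the 4 H4C7 regions 1 covers H1-3, whereas the grey regions cover all of them.

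The region behind the H4C4 FPKM was 10000 bp longer than any region listed for the gene. Its far end coincides with that of a DoG listed for H2BC4 in replicate 2 of the SERIPH 2nd step, from 26034760 to 26086316. Of all entries, 61 had an FPKM region longer than any listed one, and 59 of them matched, to within 1 bp, the reach of listed regions merged over all libraries on the same strand. In H4C4, 59.1% of the counted bases lie past the end that 5 libraries shared. The far end for H4C7 is also that of the DoG listed for H1-3, at 26219212. H2BC4, H1-2 and H1-3 have listed DoGs of their own and no FPKM entry. The FPKM of H4C4 and H4C7 therefore counts reads over bodies of other histone genes, and readthrough from the H4 genes and transcripts of those genes cannot be told apart in it.

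In control cells, where no H4C4 DoG was listed, FPKM over the H4C4 region was 3.26 and 3.17 in the conventional libraries. It was 4.1 and 3.12 in the SERIPH 1st-step libraries and 1.98 and 1.84 in the hiAGPC libraries. Both SERIPH 2nd-step libraries had 0.03. The 2nd-step libraries thus lay far below the other 6 control libraries, which ranged from 1.84 to 4.1, with no overlap. H4C4 stood 15th from the top among the 3139 entries by mean FPKM in the conventional preparation and 9th in the 1st step, and at place 2223 in the 2nd step.

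The H4C7 region, also without a listed DoG in control cells, was lower throughout. Its control FPKM was 0.65 and 0.73 in the conventional libraries, 0.93 and 0.65 in the 1st step, 0.48 and 0.46 in hiAGPC, and 0.01 and 0.0 in the 2nd step. The order of the group means was that of H4C4, and the 2nd-step libraries again did not overlap the others. On the scale log2(FPKM + 0.1), which understates differences of low values, the 2nd step minus hiAGPC was −3.95 for H4C4 and −2.44 for H4C7, with 0 DoGs below H4C4 and 1 below H4C7. Over all DoGs 1.47% were called lower in that comparison. The 2nd step minus the 1st step was −4.82 and −3.07, where 3.28% were called lower. These differences chose the genes or share libraries with those that did, and no test is given.

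Under DoG-inducing conditions the 2nd step no longer stood apart. H4C4 had 6.15 and 6.12 FPKM in the conventional libraries, 4.17 and 3.9 in the SERIPH 1st step, 5.16 and 5.18 in hiAGPC and 4.39 and 4.48 in the SERIPH 2nd step. The conventional libraries were the highest, and the 2nd-step libraries lay just above those of the 1st step. Ordered by mean, the 4 DoG-inducing groups came first and the control groups followed as 1st step, conventional, hiAGPC and 2nd step. Only the DoG-inducing 1st step, the control 1st step and the control conventional groups overlapped their neighbours in this order.

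H4C7 had 0.91 and 1.14 FPKM in the conventional libraries, 1.12 and 0.77 in the 1st step, 0.99 and 1.03 in hiAGPC and 0.94 and 0.99 in the 2nd step. All 4 DoG-inducing groups overlapped, and so did the control 1st-step and conventional groups, while control hiAGPC and the control 2nd step each stood below the rest. The conditions were not apart either, since the DoG-inducing 1st step overlapped the control 1st step. H4C4 was between 3.72 and 6.76 times as high as H4C7 in each library outside the control 2nd step, in FPKM. In the DoG-inducing conventional preparation H4C4 had the 2nd highest mean FPKM of all 3139 entries, and in the 2nd step it was at place 53.

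**Figure D2:**
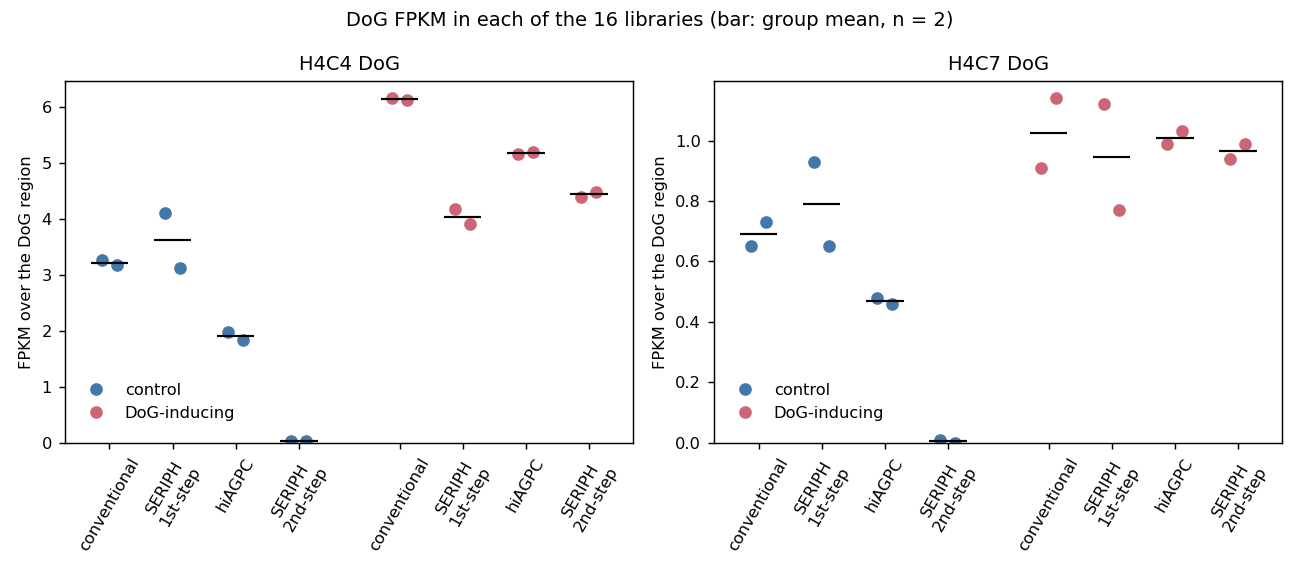
FPKM of the H4C4 (left) and H4C7 (right) DoGs on a linear axis, 1 point per library, with a bar at the mean of 2 replicates, for 4 preparations in control (blue) and DoG-inducing cells (red). The control SERIPH 2nd-step points lie at 0.03 and at 0.01 and 0.0, while the DoG-inducing 2nd-step points lie at 4.39 and 4.48 and at 0.94 and 0.99.

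Whether a preparation changed the level under DoG-inducing conditions was tested with limma on log2(FPKM + 0.1) over all 3139 entries, where a call needed an adjusted p-value under 0.05 and a log2 difference of at least 1 in size. Neither gene was called in any of the 7 comparisons between groups that did not enter the selection. The spread behind each test came from all 16 libraries, those of the selection included. For the SERIPH 2nd step minus the 1st step, the difference was 0.13 ± 0.10 (SE) for H4C4, with a 95% interval of −0.08 to 0.35 and an adjusted p of 0.212 in limma. For H4C7 it was 0.05 ± 0.17, with an interval of −0.33 to 0.42 and an adjusted p of 0.794 in limma. Over all DoGs of the same comparison the median difference was 1.99, and the 2nd step had 79.3% called higher and 2.96% called lower. Both intervals end below 1, the smallest size that could be called. DoGs listed only in hiAGPC or 2nd-step libraries, H4C7 among them, are favoured to have higher values in those preparations. Centred on the median of each library, which removes the shift shared by most DoGs, the differences turned to −1.85 for H4C4 and −1.94 for H4C7.

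For hiAGPC minus conventional under DoG-inducing conditions, H4C4 differed by −0.24 ± 0.10, with an adjusted p of 0.0361 in limma but a size under the threshold, and by −1.69 after centring. H4C7 differed by −0.01 ± 0.17, with an interval of −0.39 to 0.36, and by −1.46 after centring. Here the median over all DoGs was 1.40, with 68.8% called higher in hiAGPC and 0.478% called lower. Of all DoGs, 4.94% had a lower difference than H4C4 and 8.03% a lower one than H4C7. Between the 2nd step and hiAGPC the differences were −0.22 ± 0.10 for H4C4 (adjusted p of 0.0676 in limma) and −0.06 ± 0.17 for H4C7 (0.764 in limma). In that comparison the 2nd step had 6.91% of DoGs called higher and 1.75% called lower.

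**Figure D3:**
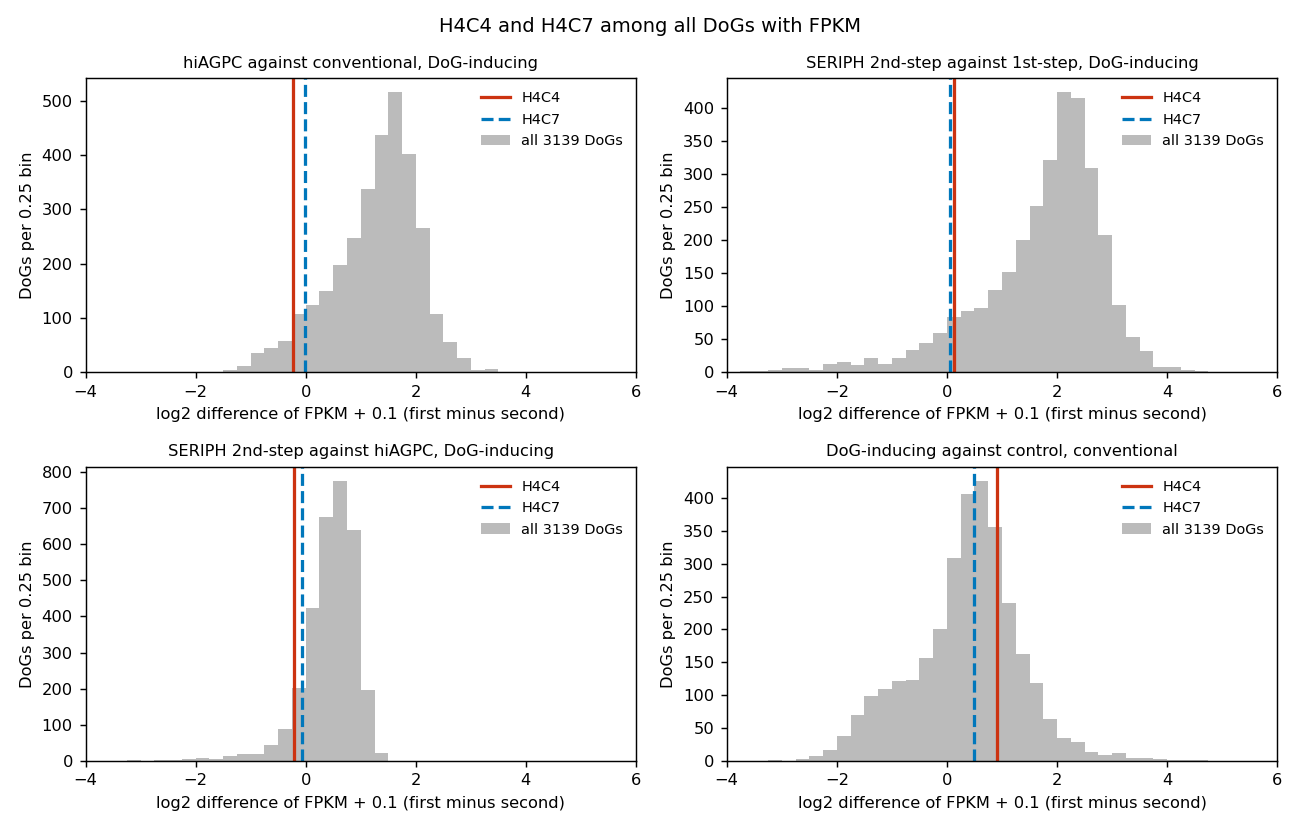
Histograms of the log2 difference in FPKM + 0.1 for all 3139 DoGs (grey, number per bin of 0.25) in 4 comparisons, with vertical lines at H4C4 (red) and H4C7 (blue, dashed). In the comparison of the SERIPH 2nd step with the 1st step the lines lie at 0.13 and 0.05 and the median of all DoGs at 1.99, whereas in the comparison of conditions in the conventional preparation they lie at 0.91 and 0.50 and the median at 0.44.

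The conventional preparation and the SERIPH 1st step both hold RNA of the aqueous phase. In control cells the 1st step minus conventional was 0.15 ± 0.10 for H4C4 and 0.16 ± 0.17 for H4C7, with adjusted p-values of 0.63 and 0.863 in limma. No DoG was called in either direction by limma (0%), with 355 at an unadjusted p under 0.05. Under DoG-inducing conditions H4C4 differed by −0.59 ± 0.10, with an interval of −0.81 to −0.38 and an adjusted p of 0.0355 in limma, which did not reach the size for a call. H4C7 differed by −0.12 ± 0.17 (adjusted p of 0.672 in limma). No DoG was called there by limma either (0%), with 933 at an unadjusted p under 0.05. In H4C4 both 1st-step libraries lay below both conventional libraries, at 4.17 and 3.9 against 6.15 and 6.12 FPKM.

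The effect of the DoG-inducing condition was compared within the aqueous preparations. The DoGs of H4C4 and H4C7 were listed only in DoG-inducing libraries, which favours higher values there. These tests are therefore no independent evidence of induction. In the conventional preparation the difference was 0.91 ± 0.10 for H4C4, with an interval of 0.69 to 1.13 and an adjusted p of 4.43e-06 in limma, and 0.50 ± 0.17 for H4C7, with an interval of 0.13 to 0.88 and an adjusted p of 0.0176 in limma. Both DoG-inducing libraries exceeded both control libraries for each gene, and neither difference reached the size for a call. Over all DoGs the median was 0.44, with 22.2% of them called higher and 11% called lower, and after centring the differences were 0.36 for H4C4 and −0.05 for H4C7. In the SERIPH 1st step the differences were 0.17 ± 0.10 (adjusted p of 0.138 in limma) and 0.23 ± 0.17 (0.237 in limma), which became −0.33 and −0.27 after centring. There 21.8% of DoGs were called higher and 10.6% called lower, around a median of 0.43. For H4C4 the condition effect was 0.74 ± 0.14 larger in the conventional preparation than in the 1st step, with an interval of 0.44 to 1.05 and an adjusted p of 0.391 over all DoGs in limma. For H4C7 it was 0.28 ± 0.24 larger, with an interval of −0.26 to 0.81 and an adjusted p of 0.749 in limma. Neither difference between the preparations was called.

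Other replication-dependent histone genes with FPKM numbered 21. In the conventional preparation 18 of these DoGs were called higher under the DoG-inducing condition and 0 were called lower, against 22.2% and 11% of all DoGs, and their median log2 difference was 2.10 against 0.44. The 1st step gave 17 called higher and 0 called lower, against 21.8% and 10.6% of all DoGs, and a median of 2.09 against 0.43. Apart from H4C14 and H4C15, none of the 21 had a DoG listed in a control library. The regions of the rest were listed only in DoG-inducing libraries, which favours higher values there. These counts are therefore no independent evidence of induction. The 3 not called in the conventional preparation were H2BC17, H2BC26 and H4C16, and H4C11 joined them in the 1st step. Control levels of the conventional preparation were also as high as that of H4C7, at 0.69 FPKM, in H4C11, H4C14 and H4C15, with means of 0.805, 1.58 and 2.05 FPKM, and H4C4, at 3.21 FPKM, was the highest of the 23. By contrast, the DoGs of H1-1, a linker histone gene, and of H2AC1, an H2A gene, were listed at 0 in every control library.

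Under DoG-inducing conditions 12 of the 21 other DoGs were called higher in the SERIPH 2nd step than in the 1st step, 0 were called lower and the median was 1.18, beside 79.3% higher, 2.96% lower and a median of 1.99 over all DoGs. The called DoGs were led by H2BC18 at 2.62, H1-1 at 2.53 and H2BC11 at 2.46 on the log2 scale. Among them H2AC1, H2BC21, H3C8 and H4C16 were listed only in hiAGPC or 2nd-step libraries, which favours higher values there. Their calls are therefore no independent evidence of a higher 2nd step. H2BC13, H4C11 and H4C12 were also listed only there and were not called. The 9 that were not called included H4C11 at −0.19, H4C15 at 0.03, H4C14 at 0.32 and H4C12 at 0.40, all H4 genes and named after their values were seen. The rest of the 9 were H2A or H2B genes, namely H2AC12, H2BC13 at 0.58, H2BC26 at 0.65, H2BC9 at 0.84 and H2BC8 at 0.99. The H4 genes H4C5 and H4C16 were called, at 1.33 and 1.18. H2AC12, an H2A gene named for having the lowest value of the list, stood at −0.81. Between hiAGPC and the conventional preparation 10 of the 21 were called higher and 0 lower in limma, beside 68.8% and 0.478% of all DoGs. Between the 2nd step and hiAGPC limma called 0 of the 21, with differences from −0.97 to 0.68, beside 6.91% of all DoGs called higher and 1.75% called lower.

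The replacement histone genes, which are expressed outside S phase and make polyadenylated mRNAs, are represented by H2AZ2, H3-3A, H3-3B and H3-5. All 4 of their DoGs were called higher in the 2nd step than in the 1st step under DoG-inducing conditions, by 2.83, 3.11, 2.36 and 2.76 on the log2 scale, where 79.3% of all DoGs were called higher. H2AZ2, H3-3A and H3-5 were listed only in hiAGPC and 2nd-step libraries, which favours higher values there. Their calls are therefore no independent evidence of a higher 2nd step. H3-3B was also called higher in the 2nd step than in hiAGPC, by 1.12, where 6.91% of all DoGs were called higher. H2AZ2 at 0.90, H3-3A at 0.65 and H3-5 at 0.50 were not called there. Of the factors of histone mRNA synthesis and processing, NPAT, an activator of histone gene transcription, was called higher in the 2nd step than in the 1st step, by 1.33, and NCBP1, a subunit of the nuclear cap-binding complex, differed by 0.50. The NPAT DoG was listed in 7 control libraries and in 0 DoG-inducing libraries. Its value is thus a difference over a region not listed under this condition, at 0.53 against 0.15 FPKM. H4C4, at 0.13, and H4C7, at 0.05, lay below each of these 6 values. They also lay below most DoGs, since 9.49% of all DoGs had a lower difference than H4C4 and 8.67% a lower one than H4C7.

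**Figure D4:**
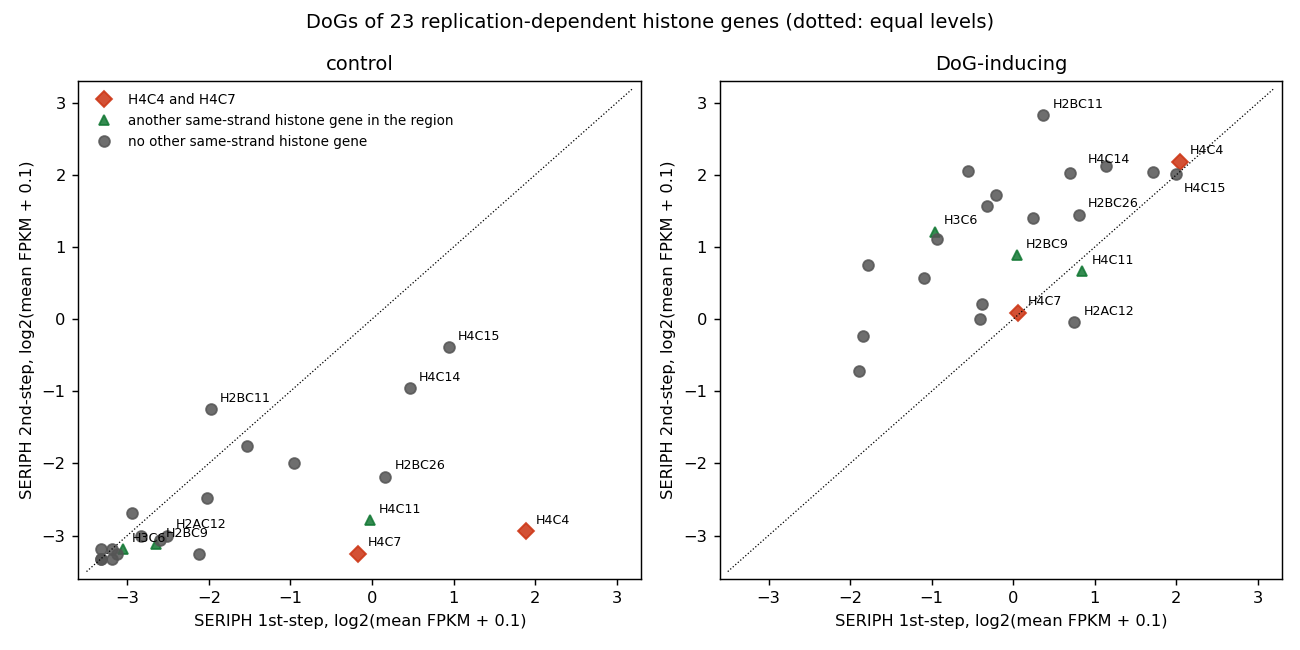
Mean FPKM + 0.1 (log2, n = 2) of 23 replication-dependent histone DoGs in the SERIPH 1st step (x axis) and 2nd step (y axis), for control cells (left) and DoG-inducing cells (right). H4C4 and H4C7 (red) lie far below the dotted line of equal levels in control cells and on it in DoG-inducing cells, and H4C11 (green) follows the same course.

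A same-strand histone gene inside the FPKM region was found for 5 of the 23 histone DoGs and for 0 other entries of the table. Besides H4C4 and H4C7 these were H4C11, over H2BC15 and H2AC16, H2BC9, over H2BC10, and H3C6, over H4C6. H4C11 had 0.43 to 0.95 FPKM in the 6 control libraries outside the 2nd step and 0.04 and 0.05 in the 2nd step, followed by 1.41 to 2.02 in the 8 DoG-inducing libraries. H2BC9 and H3C6 had group means of 0.075 FPKM or less in control cells. Of the histone DoGs with no such gene in the region, H4C14 and H4C15, which encode H4, had 1.06 to 1.61 and 1.34 to 2.07 FPKM in the 6 control libraries outside the 2nd step, against 0.39 and 0.44 and 0.64 and 0.69 in the 2nd step. The H2B genes H2BC26 and H2BC17, also without one, had 0.39 to 1.31 and 0.35 to 0.5 FPKM in those 6 libraries and 0.12 and 0.15 in both libraries of the 2nd step. These 4 were named after their values were seen. Over all 18 other histone DoGs with no such gene, the control 2nd step minus the 1st step ranged from −2.30 to 0.73 in log2. Their median was −0.19, beside 0.17 over all DoGs. The highest, H2BC11, had 0.13 to 0.27 FPKM in those 6 libraries and 0.32 in both of the 2nd step. The part of the overlapped genes in the control levels was not tested. H4C14 and H4C15 are also the only replication-dependent histone genes with a DoG listed in control libraries, 6 each.

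Regions on the opposite strand were also counted. The FPKM region of H3C6 lies on the plus strand opposite that of H4C7 and covers the H4C7 and H1-3 genes in antisense, and it had 0.01 to 0.06 FPKM in the 8 control libraries. The DoG region of H2BC6, which covers the H4C4 gene in antisense, had 0.0 to 0.03 FPKM in these libraries. The part of reads from the opposite strand was not tested. Histone genes are similar in sequence, the authors kept uniquely mapped reads, and the part of reads shared between copies in these values was not tested.

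Over the 16 libraries the DoG with the pattern most like that of H4C4 was H4C7, and the reverse (Pearson r = 0.992 of log2(FPKM + 0.1)). Next came H4C11 for both, at 0.963 and 0.965. For H4C4 these were followed by UBE2D1, which encodes a ubiquitin-conjugating enzyme, at 0.953, SUSD5 at 0.95 and the antisense RNA gene HOXA10-AS at 0.948. For H4C7 they were followed by TLR9, which encodes a receptor for unmethylated DNA, at 0.952, HOXA10-AS at 0.952 and the mucin gene MUC1 at 0.948. The points share libraries, and the control 2nd-step libraries that entered the selection are among them.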

How the data were processed

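The DoG regions were called by the authors in each library and deposited as positions on GRCh38. Per the labels and the study's methods, reads were trimmed with fastp 0.25.0, cleared of ribosomal reads with Bowtie2 2.5.4 and aligned with STAR 2.7.11b, and DoGs were called on GENCODE v49 with ARTDeco (at least 10000 bp, windows of 5000 bp, coverage of 0.5). FPKM was computed by the authors over 1 region per entry and deposited to 2 decimals, with no counts, so the depth per library is unknown and the number of libraries limits the precision.

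From these files, 16 libraries in 8 groups were fitted with limma 3.58.1 (R 4.3.3) on log2(FPKM + 0.1) with an intensity trend, and p-values were adjusted by the Benjamini-Hochberg method over 3139 entries. The fit was tested on simulated data. Gene positions and the genome sequence were those of GENCODE v44 and GRCh38, read with Python 3.11.15 and pandas 2.3.3, and figures were drawn with matplotlib. In v44, 3131 of the entries were found by gene identifier. The lists held 70 replication-dependent histone genes, replacement histone genes and factors of histone mRNA, and the members and lists were chosen with earlier results of these data known. Genes named were those 2, same-strand histone genes in their regions, other DoGs over such genes, list members with FPKM (values for those called in the DoG-inducing 2nd-step comparisons, at most 10 per list), and the 5 DoGs most like each in pattern. The test of the condition effect between aqueous preparations was added after the data were seen. Per the study's methods, both SERIPH steps come from 1 lysate, and conventional and hiAGPC extractions were run side by side on shared samples, so libraries of a condition with the same number may share a culture, which the labels do not state. Differences between replicates of 2 preparations correlated at −0.073 to 0.057, and the fit has no block, with the replicate block as an alternative. Between any 2 libraries at least 2119 entries differed. Alternatives were other pseudocounts, a filter on mean FPKM, centring, no trend, a fit of only the 4 libraries compared, the adjusted p alone, each library left out, a listing in either replicate, other overlaps and other stem-loop windows. All per-sample columns were used (0 left over). Gene expression was not analysed here.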

Additional observations from a re-analysis of the deposited data

Results flagged for a closer look

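For H4C4, both SERIPH 2nd-step libraries lay below both 1st-step libraries in control cells (0.03 and 0.03 against 4.1 and 3.12 FPKM) and above both under DoG-inducing conditions (4.39 and 4.48 against 4.17 and 3.9 FPKM). The latter difference, 0.13 with a 95% interval of −0.08 to 0.35, was not called, and its interval spans both signs. Centred on the median of each library, both differences were negative, at −5.06 in control cells and −1.85 under DoG-inducing conditions. The difference under DoG-inducing conditions exceeded that in control cells by 4.96 on the log2(FPKM + 0.1) scale, and this was not tested, since control 2nd-step libraries entered the selection of the gene. For H4C7 the 2nd-step and 1st-step libraries overlapped under DoG-inducing conditions. With 2 libraries in each group, no group was large enough to look for a single outlying library.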

How the results depend on the processing

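None of the 14 tested differences of H4C4 and H4C7 was called in the model used. Of 168 values under alternatives, 148 kept their direction and their side of the threshold, 14 changed sign and 6 passed the threshold in the same direction. Centring of each library on its median gave −1.69 for H4C4 and −1.46 for H4C7 in hiAGPC minus conventional, and −1.85 and −1.94 in the SERIPH 2nd step minus the 1st step, all past the threshold and under DoG-inducing conditions. It also gave −0.05 for H4C7 between conditions in the conventional preparation, and −0.33 and −0.27 between conditions in the 1st step. By the adjusted p alone, H4C4 passed in hiAGPC minus conventional (−0.24), in the 1st step minus conventional (−0.59, both DoG-inducing) and between conditions in the conventional preparation (0.91), where H4C7 also passed (0.50). For H4C4 in the 1st step minus conventional, the adjusted p in limma was 0.0521 with the replicate block and 0.318 with only the 4 libraries compared. In hiAGPC minus conventional these limma values were 0.0286 and 0.00364.

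Left out in turn, single libraries gave for H4C7 −0.16 to 0.14 in hiAGPC minus conventional, −0.20 to 0.29 in the 2nd step minus the 1st step and −0.36 to 0.12 in the 1st step minus conventional, all under DoG-inducing conditions. In control cells the 1st step minus conventional ranged from −0.04 to 0.34 for H4C4 and from −0.07 to 0.38 for H4C7. Between conditions in the 1st step the ranges were −0.02 to 0.36 and −0.01 to 0.47. The replicate block was set within each condition, so with it conditions are compared at the fitted level of replicate 1. That difference in the conventional preparation was 0.85 for H4C4 and 0.45 for H4C7, and it is not an adjusted difference of group means. The block changed no call.

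The control differences depend on the pseudocount. With 0.01 and 1, the 2nd step minus the 1st step was −6.49 and −2.15 for H4C4 and −5.80 and −0.83 for H4C7, and the 2nd step minus hiAGPC was −5.58 and −1.50 for H4C4 and −5.08 and −0.55 for H4C7. Centring gave −5.06 and −3.30 against the 1st step and −4.10 for H4C4 against hiAGPC. With a library left out, the 2nd step minus the 1st step ranged from −5.01 to −4.63 for H4C4 and from −3.30 to −2.84 for H4C7. On either strand, the FPKM regions held 10 histone genes for H4C4 and 3 for H4C7, in place of 4 and 1. The causes were not tested.

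Counts over all DoGs moved more. In the 2nd step minus the 1st step under DoG-inducing conditions, 575 were called higher with a pseudocount of 1 and 211 after centring, with 639 lower, in place of 2489 and 93. In hiAGPC minus conventional the pseudocount of 1 left 144 higher and centring 111 higher and 502 lower, in place of 2159 and 15. Centring left 0 higher and 116 lower between the 2nd step and hiAGPC (217 and 55), and 270 higher and 614 lower between conditions in the conventional preparation (697 and 345). The depth of single libraries is unknown, so values near 0.01 FPKM cannot be weighed against counting error.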
